A study of Mus musculus with 16 samples.

Results

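Transcripts for the subunits of the mitochondrial respiratory chain and the ATP synthase were followed in epithelial cells of the mouse small intestine before and after weaning. Members were chosen by gene symbol alone: the Nduf, Sdh a to d, Uqcr, Cox4 to Cox8 and Atp5 genes, which came to 83 of 24421 annotated genes. Of these, 36 belong to complex I, 4 to complex II, 8 to complex III, 18 to complex IV and 17 to complex V. The symbols also take in genes that are not plain subunits. Ndufa4, counted with complex I by its name, is now regarded as a complex IV protein, and Cox7a2l is a factor of supercomplex assembly. Atp5s and Atp5sl, counted with complex V by their names alone, are assembly or coupling factors. The RefSeq entries used below list these 2 as Dmac2l and Dmac2. Mice were C57BL6/J and labelled WT, with 4 mice at postnatal day 6 (P6), when pups live on milk, and 4 at P36, after weaning. Each age had 2 female and 2 male mice. The jejunum and the ileum of every mouse were each made into 1 library of cells freed with EDTA, which gave 4 groups of 4 libraries: P6 jejunum, P6 ileum, P36 jejunum and P36 ileum. The labels name no genetic change or treatment in any group. The study's methods allow a longer EDTA incubation at P36 and another means of euthanasia, so these steps and age cannot be told apart. A segment of intestine holds several epithelial cell types at once, so in these bulk libraries fewer cells of a type and less RNA per cell cannot be told apart.

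Complexes I to IV pass electrons from NADH and succinate to oxygen, and complexes I, III and IV pump protons across the inner mitochondrial membrane as they do so. Complex V, the ATP synthase, lets the protons back and makes ATP. Most subunits are encoded in the nucleus and imported, while a small core is encoded in mitochondrial DNA. Several complex IV and V subunits exist as isoforms from separate genes, some of them known from heart and skeletal muscle or from testis. Absorptive enterocytes use mitochondrial ATP to keep the sodium gradient that drives nutrient uptake.

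The libraries held 12159237 to 25947276 counts. Levels below are counts per 1e6 counts of a library (CPM), with library sizes adjusted by TMM factors, fold changes are log2 values with a standard error (SE), and a gene was called at a Benjamini-Hochberg adjusted p below 0.05 over all 13429 genes tested by edgeR's quasi-likelihood test. Where an age comparison gives a pair of values, the jejunum comes first. Of the 83 members, 77 were tested. Cox7b2, Cox8b and Cox8c had 0 counts in every library, which allows a level of up to 0.116 CPM in the deepest library and 0.247 CPM in the shallowest, from counting error alone. Cox4i2 held 28 counts and Cox6a2 held 9 counts over all libraries. Ndufs5 also had 0 counts, but 95.1% of its exon bases on chromosome 4 (123712710 to 123718186, minus strand, mm10) were annotated on the same strand to a second gene, BC002163, and it was the only member that shared exon bases in this way. Nothing is read from its 0.

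The label of the samples was checked on marker lists. The 10 enterocyte markers summed to 98600 to 119000 CPM (P6 jejunum), 14000 to 26100 (P6 ileum), 27500 to 34800 (P36 jejunum) and 11000 to 25700 (P36 ileum), so all groups held abundant enterocyte RNA. P6 ileum replicate 2 carried 225 CPM of 6 smooth muscle markers against 3.53 CPM or less in each of the other 15 libraries. P6 ileum replicate 4 stood apart in another way: across 12948 genes, its deviation from the other 3 libraries of its group fell with the GC content of the transcript (Spearman's rho -0.763), while rho lay between -0.22 and 0.363 in the 12 libraries of the other groups. This library held 25 of the 77 members at a level under 0.5 of the mean of the other P6 ileum libraries, and results are given with and without it below.

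The summed mRNA of each complex was lowest in the P6 ileum and highest in the P36 jejunum. Complex V, the largest share, read 3499, 3708, 3311 and 3499 CPM in P6 ileum replicates 1 to 4 (mean 3504 ± 162, SD, n = 4). P6 jejunum gave 5685, 5801, 4587 and 6194 CPM (5567 ± 688). P36 ileum gave 6815, 6744, 8222 and 7592 CPM (7343 ± 701), and P36 jejunum gave 10031, 9482, 9546 and 9930 CPM (9747 ± 274). No value of 1 group reached into the next. Complex I summed to 1910 ± 215, 2910 ± 381, 3441 ± 425 and 4528 ± 204 CPM in the same order of groups, with an overlap of the middle pair. For complex II the values were 729 ± 68.7, 1228 ± 137, 1267 ± 106 and 1949 ± 83.4 CPM, and the P6 jejunum and P36 ileum overlapped. Complex III summed to 932 ± 48.4, 1443 ± 179, 1961 ± 267 and 2617 ± 125 CPM, and complex IV summed to 1306 ± 196, 1985 ± 325, 2752 ± 388 and 3731 ± 249 CPM, with an overlap of the regions at P6. Taken over all members, the share of a library's counts was 0.919% ± 0.0704, 1.18% ± 0.136, 1.78% ± 0.297 and 2.17% ± 0.0906, again in that order. On that unscaled measure the ages did not overlap in either region, but the regions overlapped at both ages.

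**Figure D1:**
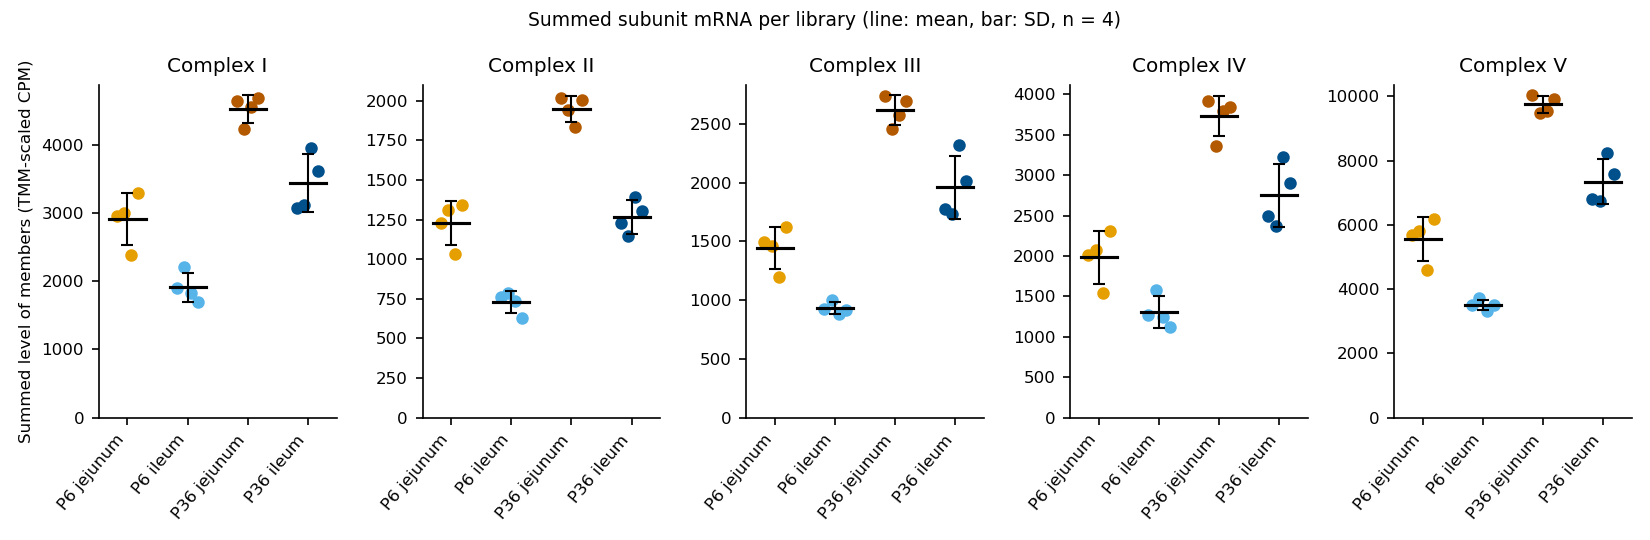
Summed level of the members of each complex (TMM-scaled CPM, y axis from 0) in the 4 groups (x axis), with 1 point per library, the mean as a line and the SD as a bar (n = 4). Every complex was lowest in the P6 ileum and highest in the P36 jejunum, as for complex V at 3504 against 9747 CPM.

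Per kilobase of exon, 1 gene headed each complex in every group. Among complex V genes this was Atp5b, the catalytic beta subunit, at 506 ± 20.8 CPM per kilobase in the group with the lowest level, P6 ileum, and 1382 ± 30.8 in the highest, P36 jejunum. Cox4i1, the main form of the nuclear subunit IV, led complex IV at 374 ± 180 and 1083 ± 78.0 in the same groups, and Uqcrh, the hinge protein of complex III, ran from 325 ± 104 to 785 ± 64.9. Sdhd, a membrane anchor of succinate dehydrogenase, led complex II at 166 ± 7.95 and 404 ± 27.1. Ndufa4 led the genes named for complex I at 242 ± 48.7 and 659 ± 35.9. At the other end, Ndufa11, an accessory membrane subunit of complex I, stood at 29.9 ± 1.38 in the P36 ileum, where the median complex I gene stood at 99.8. Its exon length was 2661 bases, against a median of 724 over the members. Before division by length it read 79.5 CPM there, above Ndufb4 at 13.8 CPM. In the P36 jejunum Ndufb4 was the lowest of complex I per kilobase. The lowest of the tested complex IV and V genes changed with age: Cox7a1 was lowest in complex IV at P6 and Cox6b2 at P36, and Atp5sl was lowest in complex V at P6 and Atp5s at P36.

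From P6 to P36 most of the subunit genes rose in each region. In the jejunum 54 of 77 members were called higher at P36, beside 24.7% of all tested genes, and 2 were called lower, beside 26.9%. For the ileum 61 were called higher, beside 25.5%, and 2 lower, beside 30.1%. The median log2 fold change of the members was 0.78 (1.72-fold) and 0.97 (1.95-fold) in these regions, where the median of all tested genes was -0.01 and -0.03. Of the members, 52 were called higher at P36 in both regions. The libraries of the 2 ages did not overlap for 66 members that were higher at P36 in the jejunum, beside 30.9% of all genes, and for 59 in the ileum, beside 20.8%. The jejunum and ileum of a mouse share that mouse, so the regions are not independent samples of the ages. Without P6 ileum replicate 4, the calls came to 66 higher and 2 lower in the jejunum (background for higher calls 30.2%) and to 69 higher and 2 lower in the ileum (30%), and every member called higher with all 16 libraries was still called.

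Members of each complex were called higher. In complex I, 21 of 35 tested members were called higher at P36 in the jejunum (median 0.66) and 24 in the ileum (median 0.92), with none lower. In complex II the counts were 3 and 4 of 4 (medians 0.64 and 0.83), in complex III 5 and 8 of 8 (0.88 and 1.07), in complex IV 11 of 13 in each region (1.01 and 1.19), and in complex V 14 of 17 in each region (0.79 and 1.09). Complexes IV and V each had 1 member called lower in each region. Differences between complexes were not tested.

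**Figure D2:**
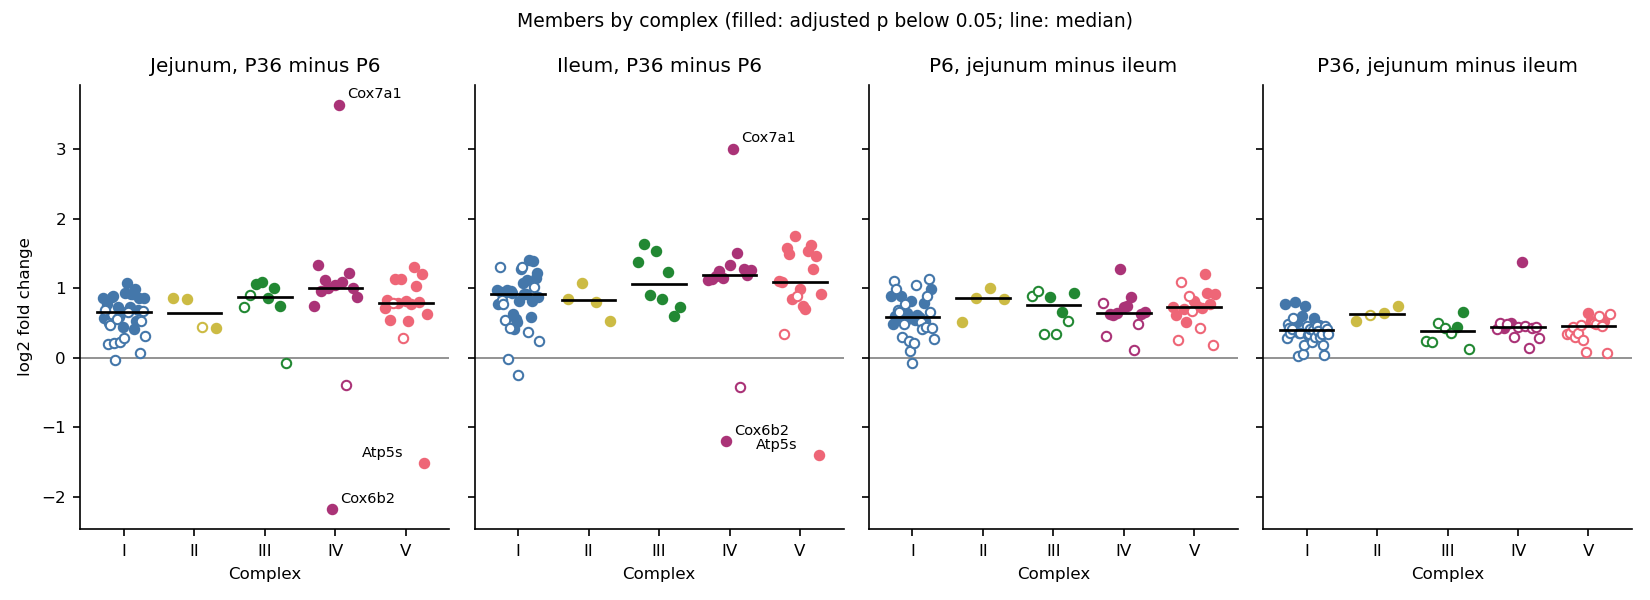
Log2 fold change (y axis) of each tested member by complex (x axis) in the 4 comparisons, filled where the adjusted p was below 0.05, with the median as a line. The age panels lie mostly above 0, apart from Cox6b2 and Atp5s below and Cox7a1 far above, and the region panels show smaller values on the jejunal side.

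Atp5o, the subunit that holds the stalk of the ATP synthase to its catalytic head, had one of the smallest adjusted p-values with age in both regions. Its jejunal level was 235, 254, 202 and 297 CPM at P6 and 599, 542, 569 and 583 CPM at P36. In the ileum it read 132, 163, 134 and 148 CPM at P6 and 398, 361, 425 and 408 CPM at P36. The ages were far apart in both regions, with log2 fold changes of 1.21 (SE 0.13, adjusted p = 1.26e-06) and 1.47 (SE 0.13, adjusted p = 1.74e-07). Atp5e, the small epsilon subunit of the head, rose by 1.14 (SE 0.16) and 1.49 (SE 0.16), with adjusted p-values of 1.86e-05 and 1.15e-06. The catalytic and structural partners Atp5b and Atp5a1 also rose, Atp5b by 0.83 (adjusted p = 7.66e-05) and 1.09 (adjusted p = 4.73e-06) and Atp5a1 by 0.72 (adjusted p = 0.000375) and 1.11 (adjusted p = 5.2e-06).

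Sdha, the flavoprotein of succinate dehydrogenase that links the chain to the citric acid cycle, read 438, 455, 405 and 445 CPM in the jejunum at P6 and 815, 785, 766 and 800 CPM there at P36. The ileum gave 310, 301, 293 and 309 CPM at P6 and 549, 510, 548 and 581 CPM at P36. No library of 1 age came near the other age. Sdha rose by 0.86 (SE 0.10, adjusted p = 4.58e-06) and, in the ileum, by 0.85 (SE 0.10, adjusted p = 5.13e-06). Its iron-sulfur partner Sdhb rose by 0.84 and 1.08 (adjusted p = 0.00405 and 0.000551) and the anchor Sdhd by 0.43 and 0.53 (adjusted p = 0.0103 and 0.00245). Sdhc, the other anchor, rose by 0.81 in the ileum (adjusted p = 0.00173) and was not called in the jejunum (0.44, adjusted p = 0.0559).

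Among complex III genes the Rieske iron-sulfur protein Uqcrfs1 read 152, 156, 119 and 188 CPM in the jejunum at P6 against 332, 311, 293 and 307 CPM at P36. Its ileal values were 96.0, 101, 91.3 and 101 CPM against 215, 203, 265 and 231 CPM, so the ages were apart in both regions. It rose by 1.01 (SE 0.14, adjusted p = 1.2e-05) and 1.23 (SE 0.14, adjusted p = 1.52e-06). The core protein Uqcrc1 rose by 1.09 and 1.54 (adjusted p = 0.00472 and 0.000324). Cox8a and Cox5a, subunits of cytochrome c oxidase, also rose in both regions, Cox8a by 0.88 and 1.26 and Cox5a by 1.33 and 1.14, with adjusted p-values from 1.17e-06 to 0.000363. Cox4i1 rose by 0.75 (adjusted p = 0.047) and 1.12 (adjusted p = 0.00493). With all of the P6 ileum in the fit, its jejunal call did not hold when any 1 of the 8 jejunum libraries was left out (0.65 to 0.83). Without P6 ileum replicate 4 the jejunal call had an adjusted p of 0.000285.

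Complex I had members called in both regions and members called in 1 of them. Ndufa1, an accessory subunit encoded on the X chromosome, rose by 0.86 and 0.98 (adjusted p = 0.000479 and 0.00016), and Ndufb10 by 0.59 and 0.64 (adjusted p = 0.00167 and 0.000834). Ndufs1, the large iron-sulfur subunit of the electron input arm, was called in the jejunum (0.42, adjusted p = 0.047) and not in the ileum (0.37, adjusted p = 0.0712). Ndufv1, which binds NADH, was called in the ileum (1.22, adjusted p = 0.00539) and not in the jejunum (0.68, adjusted p = 0.0953). Both were called in both regions without P6 ileum replicate 4, with adjusted p-values from 5.09e-06 to 0.000594. With all of the P6 ileum in the fit, the jejunal call of Ndufs1 held without P36 jejunum replicate 3 and did not hold without any 1 of the other jejunum libraries (0.37 to 0.46).

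Isoforms that stand in for each other in 1 subunit did not all share one pattern. Cox7a1, the form known from heart, skeletal muscle and brown fat, read 5.98, 4.42, 3.36 and 5.03 CPM in the jejunum at P6, then 59.1, 53.3, 62.5 and 60.2 CPM at P36. Its ileal values were 2.71, 4.05, 2.93 and 1.52 CPM at P6, then 27.7, 18.7, 21.2 and 23.2 CPM at P36. The ages did not overlap in either region, with log2 fold changes of 3.64 (SE 0.25, adjusted p = 7.09e-09) and 3.01 (SE 0.25, adjusted p = 6.23e-08). It was the only member to rise past a log2 fold change of 2, the study's own minimum, which 7.86% of genes passed in the jejunum and 6.4% in the ileum. Per kilobase, the share of Cox7a1 in Cox7a1 plus Cox7a2 went from 6.71% ± 1.19 at P6 to 29.7% ± 1.66 at P36 for the jejunum and from 7.15% ± 1.77 to 18.6% ± 4.14 for the ileum. The common form Cox7a2 also rose, by 1.09 and 1.51 (adjusted p = 4.77e-05 and 1.65e-06). Beside this, 6 markers of striated muscle and brown fat summed to at most 3.78 CPM in any P36 jejunum library, with Myl1, Ttn and Ucp1 at 0 counts there. In the P36 ileum the sum was 3.59 to 27.5 CPM, nearly all of it Acta1, with Ucp1 at 0 counts. At P6 the sum was at most 3.20 CPM, and the part of other tissues in the Cox7a1 values was not tested. The muscle forms of other subunits, Cox6a2 and Cox8b, were at or near 0 counts as stated above.

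Cox6b2, a form known from testis, went the other way. It read 21.7, 25.5, 19.0 and 18.1 CPM in the jejunum at P6, then 3.88, 4.90, 5.25 and 4.64 CPM at P36, so the ages were apart. In the ileum it read 10.6, 15.3, 6.67 and 2.16 CPM at P6 and 6.58, 3.29, 1.47 and 3.96 CPM at P36, so there the ages overlapped. Cox6b2 fell by 2.17 (SE 0.46, adjusted p = 0.000999) in the jejunum and by 1.19 (SE 0.46, adjusted p = 0.0379) in the other region. In the jejunum it was the only member called lower past a log2 fold of -2, which 8.59% of genes passed, and no member did so in the ileum, where 10% passed. The ileal call did not hold when any 1 of P6 ileum replicates 1 and 2 and P36 ileum replicates 2, 3 and 4 was left out, with values from -1.21 to -0.77. Its common partner Cox6b1 rose by 1.01 and 1.15 (adjusted p = 8.83e-05 and 2.37e-05), and the Cox6b2 share of the pair per kilobase went from 7.70% ± 1.26 to 0.901% ± 0.128 in the jejunum and from 4.73% ± 2.38 to 1.10% ± 0.690 in the ileum.

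The c subunit of the ATP synthase ring is encoded by Atp5g1, Atp5g2 and Atp5g3, which give the same mature protein. Atp5g3 made up most of the 3 per kilobase, at 69.8% ± 1.41 for P6 jejunum, 67.3% to 71.8% for P36 jejunum and 62.4% ± 2.07 for P36 ileum. In the P6 ileum it made up 62.8%, 58.7%, 64.3% and 95.8% in the 4 libraries, the last being replicate 4. Atp5g3 rose by 0.82 and 0.99 with age (adjusted p = 0.000273 and 4.42e-05), and Atp5g1 by 1.13 and 1.76 (adjusted p = 0.0302 and 0.00212). The jejunal call of Atp5g1 did not hold without P6 jejunum replicate 1, 2 or 3 or P36 jejunum replicate 4 (1.01 to 1.16). Without P6 ileum replicate 4 in the fit, that call had an adjusted p of 4.05e-06. Atp5g2 was not called in either region (0.29 and 0.89, adjusted p = 0.656 and 0.147). Among the pairs of complex IV, Cox6a1 rose by 1.12 and 1.25 and Cox7b by 1.22 and 1.27, with adjusted p-values from 4.24e-05 to 0.000127.

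**Figure D3:**
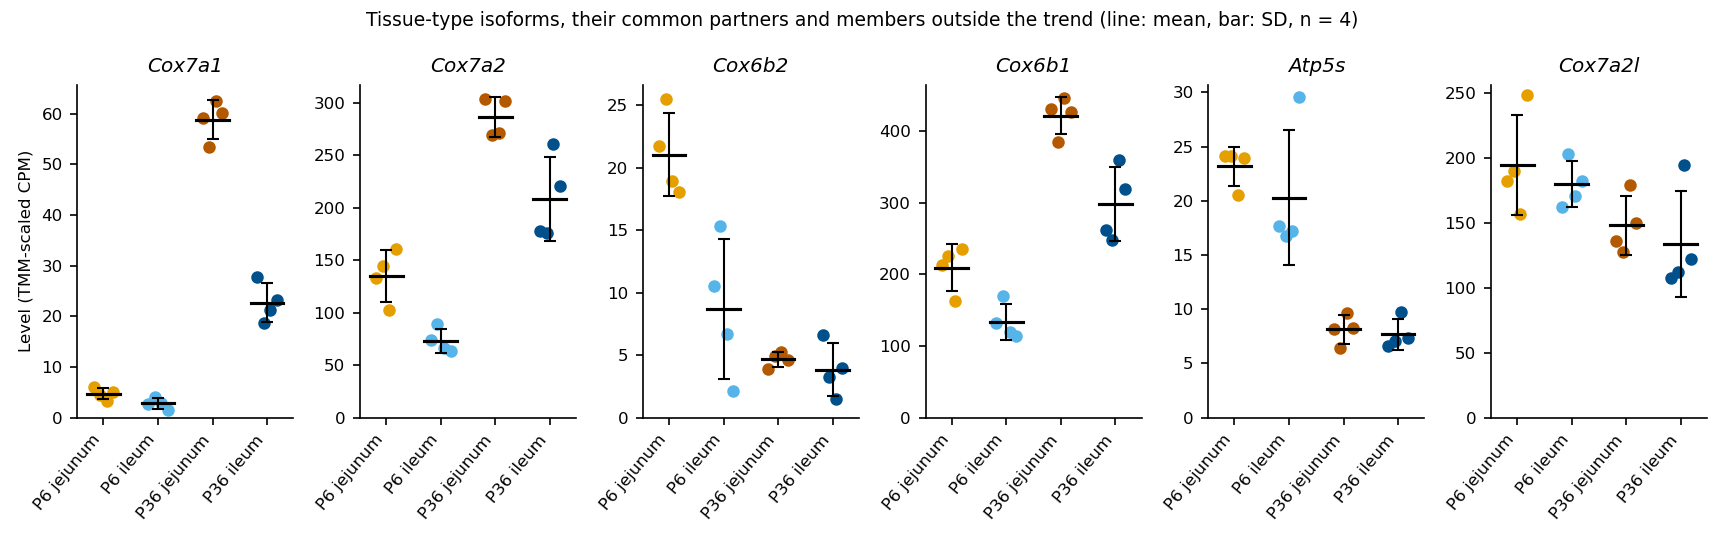
Level (TMM-scaled CPM, y axes from 0 and separate for each gene) of 6 members in the 4 groups (x axis), with 1 point per library, the mean as a line and the SD as a bar (n = 4). Cox7a1 stands at 58.8 CPM in the P36 jejunum against 4.70 CPM at P6, Cox6b2 and Atp5s are lower at P36 in both regions on average, and Cox7a2l shows overlapping ages.

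Atp5s, a factor that couples the ATP synthase and is not a subunit of its core, was the other member called lower at P36. It read 24.1, 24.1, 20.5 and 23.9 CPM in the jejunum at P6 and 8.18, 6.40, 9.65 and 8.31 CPM at P36. The ileum gave 17.7, 16.8, 17.2 and 29.6 CPM at P6 and 6.58, 7.09, 9.76 and 7.36 CPM at P36. No library at P36 reached the P6 range in either region, and Atp5s fell by 1.51 (SE 0.20, adjusted p = 1.18e-05) and by 1.40 (SE 0.20, adjusted p = 2.54e-05). Atp5sl, which shares part of that name, rose by 0.64 and 0.92 (adjusted p = 0.0229 and 0.00226), with the first of these calls lost without P6 jejunum replicate 1 or 3 or P36 jejunum replicate 4 (0.51 to 0.59). Without P6 ileum replicate 4 in the fit, that first call had an adjusted p of 0.00134. Cox7a2l, the supercomplex factor, was not called (-0.39 and -0.42, adjusted p = 0.0999 and 0.0739), and its ages overlapped in both regions.

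In all, 12 members were not called with age in either region: Ndufa2, Ndufa3, Ndufa6, Ndufa7, Ndufa11, Ndufa13, Ndufb4, Ndufb7, Ndufs7, Ndufv3, Cox7a2l and Atp5g2. Without P6 ileum replicate 4, only Cox7a2l, Ndufa6, Ndufa7 and Ndufb4 were called in neither region. Ndufb4 read 15.9, 14.7, 12.8 and 18.8 CPM in the jejunum at P6 and 22.1, 15.7, 19.1 and 19.0 CPM at P36, and its log2 fold change was 0.29 (SE 0.20, adjusted p = 0.255). In the ileum that value was -0.25 (SE 0.20, adjusted p = 0.319). The value for Ndufa7 was -0.03 in the jejunum (SE 0.31, adjusted p = 0.951) and 0.44 for ileum (SE 0.31, adjusted p = 0.249). A p that misses the threshold does not show that these genes stayed level.

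Other cell types moved with age as well. All 6 goblet cell markers were called higher at P36 in both regions, and their sum ran from 1750 to 2350 CPM (P6 jejunum), 2060 to 4180 (P6 ileum), 8030 to 9480 (P36 jejunum) and 10400 to 18900 (P36 ileum). The 8 stem and cycling markers summed to 673 to 818, 412 to 820, 1010 to 1250 and 866 to 1800 CPM in these groups, and 3 were called higher and 2 lower at P36 in the jejunum, 5 higher and 1 lower for ileum. Of 5 Paneth cell markers, 4 were called higher at P36 in each region, with sums of 20.9 to 802 CPM at P6 and 4220 to 14500 CPM at P36. Of 6 tested T cell markers, 6 were called higher in the jejunum, where 2 of the P36 libraries read 93.4 and 132 CPM and the others 9.62 and 15.2 CPM, and 1 in the ileum. Of 6 fibroblast markers, 4 were called lower at P36 in the ileum, where P6 replicate 2 held 245 CPM. The enterocyte list had 2 called higher and 4 lower in the jejunum and 3 higher and 4 lower for ileum. All 3 tested tuft cell markers and all 4 B and plasma cell markers were called higher at P36 in both regions, with sums of at most 2.84 and 2.07 CPM at P6 and at most 15.9 and 28.0 CPM at P36. The macrophage list summed to 153 to 499 CPM at P6 and 1.22 to 8.22 CPM at P36, and 1 of its 3 tested markers was called lower in each region. The median log2 age change of these 3 was 0.86 in the jejunum and -1.63 in the ileum. In the jejunum the fall of the sum was therefore not shared by the list, and it is not read as a loss of macrophages. The part of these cell types in the rise of the subunit genes was not tested.

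At each age the members that were called between regions were all higher in the jejunum. At P6, 42 of 77 members were called higher in the jejunum, beside 11.1% of all genes, and 0 in the ileum, beside 14.8%. At P36, 19 were called higher in the jejunum, beside 8.3%, and 0 in the ileum, beside 7.8%. On the ileal side edgeR also gave 0 members at an unadjusted p below 0.05 at either age, and DESeq2 called 0. No share of all genes is given for these further counts. The median member differed by 0.65 (1.57-fold) at P6 and 0.44 (1.35-fold) at P36, against medians over all genes of -0.05 and -0.04, and 76 and 77 of the 77 members lay on the jejunal side. The regions did not overlap for 37 members at P6, beside 15% of all genes, and for 51 at P36, beside 13.5%. Without P6 ileum replicate 4, which shares in the estimate of spread for every comparison, 65 were called at P6 (background 15.8%) and 54 at P36 (13.8%), and 51 were called at both ages against 17 with all libraries. Without P6 ileum replicate 2, the library with smooth muscle RNA, 44 were called at P6. With the mouse as a block 47 were called at P6 and 24 at P36. No share of all genes is given for the fit without P6 ileum replicate 2 or for the block, so these counts have no background beside them.

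The regional counts rest on the scaling. The 10 most abundant genes took 14.1% to 15.1% of the counts of P6 jejunum libraries and 7.17% to 8.21% for P6 ileum, and the TMM factors were 0.877 to 0.935 and 1.09 to 1.11. With library totals in place of TMM, the median over all genes moved to -0.33 at P6 and -0.18 at P36, 15 and 7 members were called higher in the jejunum, beside 6.65% and 6.67% of all genes, and 0 in the ileum, beside 30.4% and 11%. The 7 at P36 are near the share of all genes. The median member then differed by 0.36 and 0.29. Relative to the median of all genes, the median member was 0.70 higher in the jejunum at P6 under either scaling, and 0.48 or 0.47 higher at P36. For age the same comparison gave 0.79 or 0.80 in the jejunum and 1.00 under both scalings in the ileum. A change of scaling moves all genes of a comparison by nearly the same amount. These relative values therefore stay the same by construction and do not test the scaling.

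Within each mouse the same side prevailed. At P6 the jejunum exceeded the ileum of the same mouse for 77, 73, 76 and 69 of the 77 members in the 4 mice, with median log2 differences of 0.68, 0.51, 0.40 and 1.04. At P36 it did so for 76, 74, 67 and 77 members, with medians of 0.62, 0.50, 0.25 and 0.41. All 8 mice had a positive median. The largest of these came from the mouse of P6 ileum replicate 4 and the smallest from that of P36 ileum replicate 3, in which the summed level of the members was 19115 CPM against 15121 to 17429 CPM in the other P36 ileum libraries.

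With all libraries, complex II had the largest share of its members called across regions. Of its members, 4 of 4 were called higher in the jejunum at P6 (median 0.86) and 3 of 4 at P36 (median 0.63). Sdhd had the smallest adjusted p at P6 and the next to smallest at P36. At P6 it read 389, 406, 319 and 425 CPM in the jejunum against 219, 223, 210 and 200 CPM in the ileum. At P36 the values were 547, 540, 470 and 520 CPM against 298, 272, 367 and 294 CPM. The regions were apart at both ages, by 0.85 (SE 0.13, adjusted p = 0.000171) and 0.75 (SE 0.13, adjusted p = 0.000778). Sdha was higher in the jejunum by 0.52 and 0.53 (adjusted p = 0.00165 and 0.00232) and Sdhc by 1.01 and 0.65 (adjusted p = 0.000908 and 0.0259). The call of Sdhc at P36 did not hold without P36 ileum replicate 1, 2 or 4 or P36 jejunum replicate 1, 2 or 4 (0.60 to 0.66). Sdhb was called at P6 (0.86, adjusted p = 0.00792) and not at P36 (0.62, adjusted p = 0.0634). Without P6 ileum replicate 4 in the fit, Sdhc and Sdhb were both called at P36 (adjusted p = 0.00181 and 0.00267).

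In the other complexes a smaller share passed with all libraries. Complex I had 15 of 35 called higher in the jejunum at P6 and 8 at P36, complex III 3 and 2 of 8, complex IV 9 and 3 of 13, and complex V 11 and 3 of 17. Without P6 ileum replicate 4, the counts at P6 and P36 were 26 and 24 of 35 in complex I and 4 and 4 of 4 in complex II. They were 8 and 5 of 8 in complex III, 11 and 8 of 13 in complex IV and 16 and 13 of 17 in complex V. Complex III then matched complex II at P6. Atp5o differed by 0.78 (adjusted p = 0.000413) and 0.53 (adjusted p = 0.0115), Atp5g3 by 0.82 (adjusted p = 0.000835) and 0.65 (adjusted p = 0.00726), and Atp5a1 by 0.73 at P6 (adjusted p = 0.000961) and 0.34 at P36 (adjusted p = 0.109). Ndufa1 was higher in the jejunum by 0.89 and 0.77 (adjusted p = 0.00121 and 0.00516) and Ndufb10 by 0.65 and 0.60 (adjusted p = 0.00202 and 0.00573). Cox7a1 had the smallest adjusted p at P36, with a difference of 1.37 (SE 0.23, adjusted p = 0.000591), and differed by 0.74 at P6 (SE 0.24, adjusted p = 0.0334), where the regions overlapped. Cox6b2 was higher in the jejunum at P6 by 1.28 (SE 0.45, adjusted p = 0.0465) and was not called at P36 (0.30, adjusted p = 0.74). At P6 the call of Cox7a1 did not hold without P6 ileum replicate 1 or 3 or P6 jejunum replicate 1, 2 or 4 (0.61 to 0.78), nor that of Cox6b2 without P6 ileum replicate 1 or 3 or any 1 of the P6 jejunum libraries (1.16 to 1.37). The P36 count came to 8 to 12 when any 1 of the P36 libraries other than P36 ileum replicate 3 was left out.

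Markers of cell types moved with region too. The enterocyte list was higher in the jejunum at P6 without overlap, as given above, with 4 of 10 markers called on the jejunal and 1 on the ileal side at each age. Of 6 goblet cell markers, 3 were called higher in the ileum at each age. At P6, 5 of 6 fibroblast and 3 of 5 Paneth cell markers were called higher in the ileum, and at P36, 4 of 6 T cell and 3 of 4 enteroendocrine markers were called higher in the jejunum. Their part in the regional difference was not tested.

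The interaction asks whether the regional difference of a gene changed with age, as the difference at P6 minus the difference at P36. No member was called by edgeR or by DESeq2, beside 3.68% of all genes with a positive and 5.01% with a negative interaction. At an unadjusted p below 0.05, edgeR gave 0 members and DESeq2 gave 4. No share of all genes is given at that threshold, and nothing is read from these counts. The median member had an interaction of 0.21. Without P6 ileum replicate 4, Ndufs7 (0.55, adjusted p = 0.043) and Cox7a1 (-0.83, adjusted p = 0.0418) were called, where a negative value stands for a wider regional gap at P36. No share of all genes is given for the interaction in that fit, and nothing is read from those calls. With the GC trend of each library within its group removed, the 5 members called were Ndufa13, Ndufs7, Ndufv1, Atp5d and Atp5g2, all positive. These 5 were among the 12 members with the lowest values in P6 ileum replicate 4 relative to the other libraries of its group. The removal takes deviations from a group mean that includes this library, so the shift of the P6 ileum mean stays in place. No share of all genes is given for the interaction in this fit either, and nothing is read from its calls.

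Values of P6 ileum replicate 4 bear on many single members. Ndufb7, an accessory subunit of complex I, read 39.4, 51.6 and 46.7 CPM in P6 ileum replicates 1 to 3 and 0.638 CPM in replicate 4. Ndufa11 read 34.8, 53.1 and 39.6 against 0.785 CPM, Ndufs7, an iron-sulfur subunit, read 40.2, 43.6 and 46.5 against 1.57 CPM, and Atp5g2 read 51.7, 66.8 and 47.8 against 3.19 CPM. Of members with less GC, Cox5a read 85.0, 86.1 and 82.1 CPM against 176 CPM, and Ndufs1 read 124, 109 and 111 against 202 CPM. Over 76 members the rank correlation of this deviation with GC content was -0.627, a description of 1 library against 3 in which the members share that library. The GC content of the members was close to that of all genes (median 50.2% against 49.8%), while their transcripts were shorter (median exon length 724 against 2868 bases). For Ndufb7 the regional difference at P6 went from 1.05 (SE 0.62, adjusted p = 0.233) to 0.65 (adjusted p = 0.000781) without this library. RNA quality values were not used here, and the cause was not tested.

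**Figure D4:**
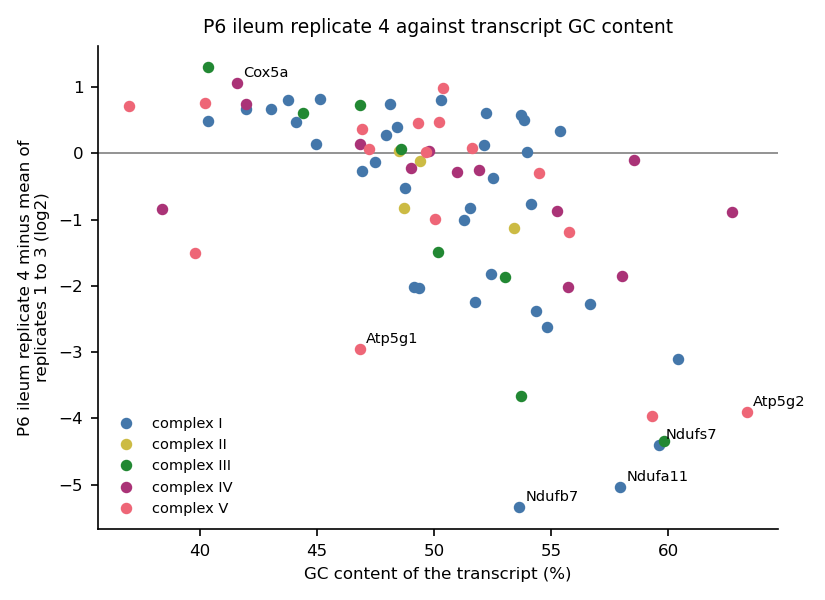
Deviation of P6 ileum replicate 4 from the mean of replicates 1 to 3 (log2, y axis) against the GC content of the transcript (percent, x axis) for 76 members, coloured by complex. The values run from -5.34 for Ndufb7 (GC 53.6%) to 1.29 for Uqcrb (GC 40.4%) and tend downward with GC content (rho = -0.627), with wide scatter at any GC content.

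Genes that work beside the subunits were counted on lists compiled for this purpose, and genes encoded in mitochondrial DNA were not analysed here. Among all genes, 24.7% were called higher and 26.9% lower at P36 in the jejunum, and 25.5% and 30.1% in the ileum. Of 5 tested subunits that the symbols miss, 4 were called higher at P36 in each region, among them Cyc1, the cytochrome c1 of complex III (1.38 and 2.18, adjusted p = 8.59e-05 and 9.05e-07), and Atpif1, the inhibitor of the ATP synthase (0.77 and 0.83, adjusted p = 0.000329 and 0.000154). Of 10 genes for cytochrome c and ubiquinone, 4 (jejunum) and 7 (ileum) were called higher at P36 with none lower. Cytochrome c itself, Cycs, rose by 1.65 and 2.76 (adjusted p = 1.08e-06 and 5.81e-09) and was the 1 gene of this list called in the interaction. The ATP carriers and channels of the mitochondrial membranes followed, with 6 and 7 of 7 called higher at P36, led by the ATP/ADP carrier Slc25a5 (1.41 and 2.07, adjusted p = 1.51e-06 and 2.72e-08). Of 18 genes of pyruvate entry and the citric acid cycle, 13 and 17 were called higher with none lower, such as Idh3a (1.24 and 1.34, adjusted p = 3.78e-06 and 1.77e-06). For 77 mitochondrial ribosomal proteins the counts were 34 higher and 0 lower (jejunum) and 52 higher and 1 lower (ileum), with medians of 0.38 and 0.65.

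Assembly factors of the chain had calls in both directions. Of 48 tested, 13 (27.1%) were called higher and 6 lower at P36 in the jejunum (median 0.17), where the share of higher calls was near the 24.7% of all genes. In the ileum 17 (35.4%) were called higher and 7 lower (median 0.27), beside 25.5% and 30.1% of all genes. Sco1, a copper carrier for cytochrome c oxidase, rose by 1.47 and 1.48 (adjusted p = 1.6e-05 and 1.44e-05). Sdhaf2, which helps to attach the flavin of Sdha, fell by 0.54 and by 0.59 (adjusted p = 0.00106 and 0.000462), while Sdha rose. The complex I factor Tmem126b fell by 0.82 and by 1.17 (adjusted p = 0.00472 and 0.000295). Glycolytic genes also changed, with 11 of 15 called higher and 2 lower in each region, led by hexokinase Hk2 (4.15 and 3.64, adjusted p = 1.88e-11 and 4.5e-11). Of 8 genes that maintain mitochondrial DNA, 3 (37.5%) were called higher and 1 lower (jejunum) and 2 (25%) higher and 1 lower (ileum). The ileal share of higher calls was near the 25.5% of all genes. Of 12 genes of cristae and mitochondrial dynamics, 5 (41.7%) were called higher and 2 lower (jejunum) and 4 (33.3%) higher and 2 lower (ileum), beside 24.7% and 25.5% of all genes called higher. Across regions, 11 and 8 of the 18 pyruvate and citric acid cycle genes were called higher in the jejunum at P6 and P36, beside 11.1% and 8.3% of all genes. The 7 and 4 of 48 assembly factors (14.6% and 8.33%) and, at P6, the 11 of 77 ribosomal proteins (14.3%) were near these shares, and 2 of the ribosomal proteins (2.6%) were called at P36.

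Of 13 regulators of mitochondrial gene expression, 5 (38.5%) were called higher at P36 in each region and none lower. Among all genes, 24.7% (jejunum) and 25.5% (ileum) were called higher, and 26.9% and 30.1% lower. Ppargc1a, which encodes the coactivator PGC-1alpha, read 23.1, 32.7, 9.50 and 38.4 CPM in the jejunum at P6, then 122, 129, 108 and 117 CPM at P36. Its ileal values were 20.0, 17.4, 11.6 and 49.6 CPM at P6, then 35.8, 21.9, 18.2 and 21.8 CPM at P36. Only the P36 jejunum stood apart, with an age change of 2.20 (SE 0.43, adjusted p = 0.000476) in the jejunum, a value of -0.01 (adjusted p = 0.982) for ileum, and an interaction of -2.21 (SE 0.59, adjusted p = 0.0297). The related coactivator Ppargc1b was called in the ileum (2.00, adjusted p = 0.00172) and not in the jejunum (0.53, adjusted p = 0.335), with 5.92, 5.08, 8.51 and 0.539 CPM in the P6 ileum, the last in replicate 4. The factor Nrf1 rose by 0.46 in the ileum (adjusted p = 0.0267) and was not called in the jejunum (0.28, adjusted p = 0.18). Pprc1 rose in both regions (0.77 and 1.17, adjusted p = 0.0335 and 0.00278), as did Myc (0.90 and 0.89, adjusted p = 0.00672 and 0.00693). Esrrg (0.91, adjusted p = 0.00775) and Ppara (0.46, adjusted p = 0.0166) were called in the jejunum and Hnf4a (0.39, adjusted p = 0.0158) in the ileum. Gabpa, Gabpb1, Yy1, Hif1a and Esrra were not called with age in either region. At P36, Hif1a was higher in the jejunum by 0.74 (adjusted p = 0.0411) and Esrrg by 1.00 (adjusted p = 0.0158).

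Promoter sequences of 69 members were taken from RefSeq (GRCm38.p6), 3 of them under another symbol, as windows from 250 bases before to 50 bases after the gene start. The entry was missing for 14 members, among them Ndufs1, Sdhc, Cox4i1 and Atp5a1. Motifs of factors known for this pathway were searched on both strands. The core of NRF1 (GCATGCG) was found in 11 of the 69, or 15.9%, against 4.01% of 27025 gene symbols in the table and 6.99% of the 10219 of them tested here. The ETS core that GABPA binds (CCGGAAG) was found in 23.2% against 9.93% and 19.2%, the YY1 core (AAGATGG) in 17.4% against 7.28% and 8.24%, and the core of the ERR factors (AAGGTCA) in 11.6% against 5.38% and 4.16%. The windows of the members had a median of 19 CpG against 7 over the table, which matters for motifs that hold CG. The 11 members with the NRF1 core had a median log2 age difference of 0.81 and 1.25 (jejunum, ileum), and the 55 tested members without it 0.78 and 0.95. For the ETS core the medians were 0.82 and 1.20 in 16 members against 0.76 and 0.95 in 50. The YY1 core gave lower medians in its 12 members, 0.76 and 0.93 against 0.80 and 0.99 in 54. With the ERR core they were 0.81 and 0.99 in 7 tested members against 0.78 and 0.98 in 59. The ileal medians include P6 ileum replicate 4, and no medians without it are given. Of the members with the NRF1 core, only Ndufa6 (0.583) and Atp5j (0.98) lay above the other P6 ileum libraries there (log2). The lowest were Ndufa11 (-5.04), Uqcr11 (-4.34) and Atp5g2 (-3.91). The motif shares and medians describe letters in a window and not bound sites.

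The 250 bases before the start are printed for 3 members that rose with age in both regions and hold a motif (Sdhb, Sdhd and Atp5l) and for the isoform genes Cox6b1, Cox6b2 and Cox7a1, each 5′ to 3′ on the gene's own strand with motif letters in capitals. Further matches in the 50 bases after the start (an ETS core in Sdhb and Atp5l, an ERR core in Sdhd) are not printed. In Sdhb (chr4:140961021-140961270, plus strand) the NRF1 core began 54 bases before the start.
Sdhb: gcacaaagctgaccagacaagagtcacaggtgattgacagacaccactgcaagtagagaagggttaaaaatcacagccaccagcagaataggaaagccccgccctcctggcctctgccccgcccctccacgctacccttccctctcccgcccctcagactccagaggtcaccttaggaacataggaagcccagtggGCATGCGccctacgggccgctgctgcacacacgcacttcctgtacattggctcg
In Sdhd (chr9:50603850-50604099, minus strand) the reverse complement of the ETS core began 46 bases before the start.
Sdhd: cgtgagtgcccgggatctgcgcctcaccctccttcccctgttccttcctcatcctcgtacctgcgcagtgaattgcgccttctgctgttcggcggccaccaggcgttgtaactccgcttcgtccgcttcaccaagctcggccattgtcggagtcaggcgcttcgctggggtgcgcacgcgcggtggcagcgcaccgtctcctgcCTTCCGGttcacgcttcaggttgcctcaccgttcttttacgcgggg
Atp5l, a small subunit of the membrane part of the ATP synthase that rose by 0.81 (adjusted p = 0.0216) and 1.28 (adjusted p = 0.001) in jejunum and ileum, held overlapping NRF1 cores on both strands, an ETS core and an ERR core (chr9:44920743-44920992, minus strand).
Atp5l: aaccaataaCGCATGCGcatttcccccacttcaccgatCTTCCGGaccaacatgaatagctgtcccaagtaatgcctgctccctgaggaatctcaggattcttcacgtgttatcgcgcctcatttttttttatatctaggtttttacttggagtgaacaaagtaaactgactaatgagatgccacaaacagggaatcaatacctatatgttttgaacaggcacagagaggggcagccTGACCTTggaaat
Cox6b1 (chr7:30626115-30626364, minus strand), which rose, held an ETS core 28 bases before the start used for the window. In the annotation used for the counts, Cox6b1 starts at base 30626151, within the printed stretch, so there this core lies inside the gene.
Cox6b1: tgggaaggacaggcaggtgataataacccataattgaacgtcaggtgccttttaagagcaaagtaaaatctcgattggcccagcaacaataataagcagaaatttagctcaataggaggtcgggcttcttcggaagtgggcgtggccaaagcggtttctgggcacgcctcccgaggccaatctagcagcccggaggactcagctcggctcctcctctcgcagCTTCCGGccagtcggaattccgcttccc
Its partner Cox6b2 (chr7:4753095-4753344, minus strand), which fell, held none of the 4 motifs in the window.
Cox6b2: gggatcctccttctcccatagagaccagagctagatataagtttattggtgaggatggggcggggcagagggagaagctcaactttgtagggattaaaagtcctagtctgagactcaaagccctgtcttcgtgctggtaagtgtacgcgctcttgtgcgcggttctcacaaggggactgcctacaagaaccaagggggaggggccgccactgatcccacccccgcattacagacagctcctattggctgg
Cox7a1 (chr7:30183921-30184170, plus strand), with the largest rise of the members, held none either.
Cox7a1: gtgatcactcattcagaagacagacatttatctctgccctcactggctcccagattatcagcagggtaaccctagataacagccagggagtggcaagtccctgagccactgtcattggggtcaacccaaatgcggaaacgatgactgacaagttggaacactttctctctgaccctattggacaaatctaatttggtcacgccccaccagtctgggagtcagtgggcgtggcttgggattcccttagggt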

How the data were processed

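Stranded mRNA libraries were made by the authors with the Kapa kit and sequenced on an Illumina NovaSeq. Per the labels and the file headers, reads were trimmed with Trimmomatic 0.38, aligned to mm10 with STAR (2.5.3 in the submitters' processing notes, another version in the study's methods) and counted per gene on UCSC exons with featureCounts 1.6.3 as reverse-stranded pairs. The deposited values are raw counts of 24421 genes in 16 libraries of 12159237 to 25947276 counts. Without options for shared reads, pairs that overlap 2 genes are not counted. The labels give a segment of 2 cm, and the study's methods another length.

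Counts were tested with edgeR 4.0.16 in R 4.3.3: filterByExpr, TMM, 1 quasi-likelihood fit of 16 libraries with 4 group means and no block, adjusted over the 13429 genes tested. DESeq2 1.42.0 was an alternative. SE is the log2 fold change divided by the square root of F. The method was tested on simulated data. GC content came from the longest GENCODE M21 transcript of each gene.

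Jejunum and ileum of a mouse are pairs by the labels. Their deviations from the group means correlated at 0.413, 0.413, 0.353 and 0.155 at P6 and at 0.386, 0.425, 0.36 and 0.3 at P36, against -0.112 and -0.123 between mice. Replicates are separate mice, and no 2 libraries agreed within sampling noise (chi-square per degree of freedom at least 13.2 over 24 pairs). Identifiers of the P6 mice share a first part in replicates 1 and 3 and another in replicates 2 and 4, and the meaning is not stated. In the P6 jejunum these pairs were closest, at 19.2 and 13.2 against 34.25 to 45.32. In the P6 ileum the values were 20.64 for replicates 1 and 3 and 285 for 2 and 4. The tests took the 4 mice as independent.

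Members, lists and the rule for named genes were chosen with earlier results of these data known. Named were up to 5 called members per direction and comparison with the smallest adjusted p, the isoform sets, core subunits, the highest and lowest member per kilobase, members past a log2 fold of 2, members that are not plain subunits, up to 3 genes per direction of each neighbouring list, and all regulators. Ndufb4, Ndufa7, Ndufb7, Ndufs7 and Atp5l were added after their values were seen.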

Additional observations from a re-analysis of the deposited data

Results flagged for a closer look

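In groups of 4 libraries, a library was marked where its gap to the nearest of the others exceeded Dixon's critical value at the 95% level. This held for 13 of 148 values looked at (named members and complex sums in each group), and chance marks about 1 in 20 groups.

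P6 ileum replicate 4 gave 7 of the 13. It was lowest for Atp5a1 (716.6 CPM against 871.2 to 889.5), Cox6a1 (58.06 against 103.7 to 111.8), Sdhb (55.96 against 120.0 to 128.4) and Uqcrc1 (57.33 against 197.1 to 223.5). It was highest for Atp5s (29.57 against 16.80 to 17.67), Cox5a (175.9 against 82.11 to 86.12) and Ndufs1 (201.7 against 108.6 to 123.5). These values move with the GC content of the transcript, and the cause was not tested.

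P6 jejunum replicate 3 was lowest for Atp5s (20.53 CPM against 23.94 to 24.14), Cox6a1 (115.3 against 154.2 to 160.2) and Ndufa1 (27.31 against 39.22 to 40.94). P36 ileum replicate 3 was highest for Cox7a2l (194.4 against 107.2 to 121.9) and Ndufa11 (84.99 against 77.07 to 78.11). P36 jejunum replicate 4 was highest for Ndufa11 (118.7 against 108.6 to 109.7).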

How the results depend on the processing

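For 89 calls of named members, the direction held under every alternative, and 1456 of 1581 repeats kept the call, among them all 89 with DESeq2 and with median-of-ratios factors and all 34 with the replicate block; library totals lost 18. The members called higher in the jejunum at P6 (42) fell to 15 with library totals and 27 with only the 8 libraries compared, and rose to 64 without P6 ileum replicates 2 and 4. Their median fell from 0.65 to 0.36 with library totals. At P36 the count (19) was 7 with library totals, 12 with no filter, 49 with only the 8 libraries compared, 29 with DESeq2, 31 with the GC trend removed, 40 with the replicate block and GC trend removed, and 54 without P6 ileum replicate 4 in the shared fit. The shares of all genes given above cover only the main fit, library totals for the regions, and higher calls by region and age without P6 ileum replicate 4. For the interaction they cover the main fit alone. For the other alternatives no share is given, so their counts do not set the members apart from all genes. The block by mouse alone gave 47 at P6 and 24 at P36 and moved no count by over 1.5 times. Members called lower at P36 in the ileum went from 2 to 1 with only the 8 libraries compared. The interaction gave 5 positive members with the GC trend removed, with or without the block. That step takes deviations from a group mean that includes P6 ileum replicate 4, so it leaves the shift of the P6 ileum mean in place. Leaving out 1 of the libraries that a comparison is made of gave 45 to 54 members higher at P36 in the jejunum, 54 to 69 in the ileum, with 2 to 2 and 1 to 2 lower, 29 to 65 regional calls at P6, 8 to 20 at P36, and 0 to 1 interactions in each direction. The medians then ranged from 0.66 to 0.84 for age in the jejunum, 0.92 to 1.08 in the ileum, 0.59 to 0.78 for region at P6, 0.39 to 0.51 at P36 and 0.13 to 0.30 for the interaction. GC removal and the fits without 2 libraries were chosen after seeing the data, and the cause of these shifts was not tested. With 4 libraries a group, changes well under the median change can go uncalled for members with a wide spread.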
